A study of Mus musculus with 12 samples.

Results

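The 6 genes described here, Elovl3, Hsd3b5, Susd4, Cyp2u1, Selenbp2 and Nudt7, are hepatocyte genes known to depend on pulsed growth hormone in mouse liver. They were chosen by name for that dependence, and all 6 were found among the 36528 gene IDs of the count table and among the 16032 genes that passed the filter on low counts. RNA was measured by stranded total RNA sequencing of whole liver in 12 mice. The CCl4 group (6 mice) was injected with carbon tetrachloride, which injures hepatocytes once their cytochrome P450 enzymes have activated it, and the oil group (6 mice) with corn oil. Over 6 weeks each mouse was given 3 intraperitoneal injections a week. Strain, age and sex are not stated in the labels, and nothing links a CCl4 mouse to an oil mouse. Total counts ran from 43027778 to 70375852 per library.

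In male rodents the pituitary releases growth hormone in pulses, and in females more evenly. Each pulse binds the receptor on hepatocytes, activates the kinase JAK2 and sends the transcription factor STAT5b to the nucleus. This intermittent activity maintains the genes that are higher in male than in female liver, and in mice these genes fall when the pituitary is removed or STAT5b is lost. All 12 livers had the transcripts of a male: Xist was at most 0.110 CPM in CCl4 livers and at most 0.220 CPM in oil livers, and the Y-linked Ddx3y was at least 34.6 CPM in CCl4 livers and at least 49.97 CPM in oil livers. CPM are read counts relative to the library total after TMM scaling.

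The upstream sequences are shown because the genes lie under the same hormone and because 1 of them, Selenbp2, has a near copy. RefSeq promoter windows (GRCm38.p6, 250 bases before to 50 after a transcript start) were at hand for 4 of the 6 genes, and the windows of Elovl3 and Cyp2u1 were not used here. The 250 bases before the start are printed 5′ to 3′ on the strand of the gene, for Hsd3b5 at chr3:98645535-98645784 (minus strand), Selenbp2 at chr3:94693323-94693572 (plus strand), its relative Selenbp1 at chr3:94932833-94933082 (plus strand) and Nudt7 at chr8:114133324-114133573 (plus strand). Capitals mark TTTATA, which is the TATA box motif TATAAA read on the other strand.
Hsd3b5: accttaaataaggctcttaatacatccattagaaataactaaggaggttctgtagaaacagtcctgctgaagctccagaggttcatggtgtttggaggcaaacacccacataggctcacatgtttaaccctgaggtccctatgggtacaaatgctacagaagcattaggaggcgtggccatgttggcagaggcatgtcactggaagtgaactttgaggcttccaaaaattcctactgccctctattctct
Selenbp2: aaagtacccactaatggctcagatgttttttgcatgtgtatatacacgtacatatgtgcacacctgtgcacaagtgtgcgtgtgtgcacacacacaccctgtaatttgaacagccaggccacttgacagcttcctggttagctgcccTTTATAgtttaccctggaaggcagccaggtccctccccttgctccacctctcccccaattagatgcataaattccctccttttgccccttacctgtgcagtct
Selenbp1: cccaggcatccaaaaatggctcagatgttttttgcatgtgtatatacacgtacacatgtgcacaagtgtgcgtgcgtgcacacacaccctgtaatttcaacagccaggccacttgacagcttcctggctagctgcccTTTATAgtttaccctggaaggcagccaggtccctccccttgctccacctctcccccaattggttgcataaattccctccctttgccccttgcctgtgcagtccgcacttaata
Nudt7: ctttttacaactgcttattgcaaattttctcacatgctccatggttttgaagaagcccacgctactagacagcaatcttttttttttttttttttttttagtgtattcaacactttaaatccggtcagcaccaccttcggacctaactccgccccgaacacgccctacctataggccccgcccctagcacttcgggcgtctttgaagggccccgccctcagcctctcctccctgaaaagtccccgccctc

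The STAT5 motif TTCNNNGAA was found on neither strand in any of the 6 windows of these 4 genes (Susd4 and Nudt7 have 2 windows each), and 8.30% of all 32851 promoter windows of this length hold it. The ROR and REV-ERB motif AGGTCA (16.3% of all windows), the E-box CACGTG (7.15%) and the HNF6 core ATCAAT (7.54%) were also not found, and TATAAA (13.6%) was found in the window of Selenbp2 alone among these 4 genes. These letters are only absent from these short windows. The upstream sequences differed in composition. The 250 bases of Hsd3b5 had 45.2% G and C and 1 CpG, whereas those of the most upstream Susd4 window had 82.8% and 41, against a median of 52.4% and 6 over all windows. Selenbp2 and Selenbp1 were alike upstream of their starts, with 93.7% identity over the aligned bases.

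All 6 genes had lower transcript levels in CCl4 livers. With edgeR's quasi-likelihood test all 6 fell at an adjusted p under 0.05, where 39.0% of all tested genes changed, 18.4% down (2951 of 16032) and 20.6% up. Each fell by at least 2-fold, as did 6.01% of tested genes. For 5 of the 6, every CCl4 liver lay below every oil liver, which held for 8.03% of all tested genes, and the exception was Selenbp2. The median log2 fold change of the 6 genes was -4.07, against 0.01 over all tested genes. In whole liver, fewer cells of a type and less RNA per cell cannot be told apart. Over all genes the balance of calls moved with the scaling, as 52.8% of the calls were upward under TMM, and under upper-quartile scaling 67.3%.

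**Figure D1:**
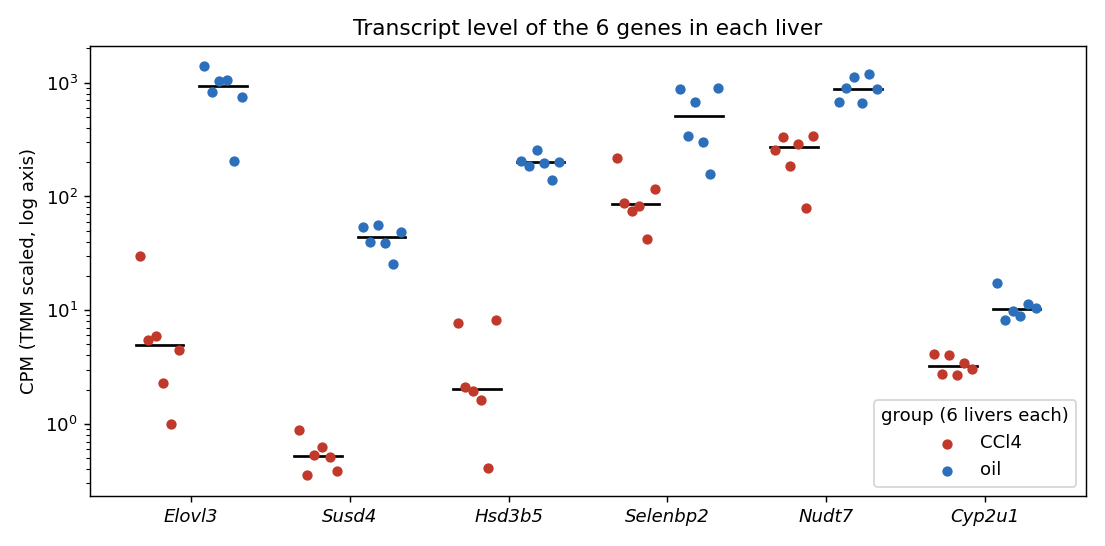
Transcript level of each of the 6 genes in CPM (log axis) in 6 CCl4 livers (left of each pair) and 6 oil livers (right); each point is a liver and each bar is the median of the group. The groups lie apart for every gene but Selenbp2, where 1 CCl4 liver at 216 CPM lies above the lowest oil liver at 158 CPM.

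Elovl3 (gene ID 12686, chromosome 19, 46131897 to 46135694, plus strand) encodes an elongase that lengthens saturated and monounsaturated fatty acids. It was at 29.9, 5.48, 5.89, 2.27, 1.01 and 4.50 CPM in CCl4 livers 1 to 6, against 1392, 827, 1028, 1048, 205 and 748 CPM in oil livers 1 to 6. CCl4 liver 1 stood above and CCl4 liver 5 below the rest of their group, and oil liver 5 stood below the other oil livers, yet the groups did not overlap. The level averaged 8.17 ± 10.8 CPM in CCl4 livers and 875 ± 397 CPM in oil livers (SD, n = 6 each). Elovl3 fell 107-fold (log2 fold change -6.74 ± 0.83 SE, adjusted p = 2.55e-05), the lowest log2 fold change but 9 of all tested genes. The size of this fold was uncertain. The log2 fold change was -7.86 (232-fold) without CCl4 replicate 1, -7.77 (218-fold) with limma-voom and -6.03 (65.4-fold) with the slope on transcript length as a covariate.

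The 3′ end of Elovl3 lies within the span of Pitx3, a homeobox gene on the opposite strand (chromosome 19, 46135281 to 46148325). Whether the authors counted by strand is not given in the sources used here, and without strand the reads of the 2 genes cannot be told apart there. Pitx3 was at 0.321 ± 0.302 CPM in CCl4 livers and 40.4 ± 18.8 CPM in oil livers (SD, n = 6 each), a log2 fold change of -6.97 ± 0.67 SE. Its count was 2.63% to 8.09% of that of Elovl3 in CCl4 livers and 3.87% to 4.85% in oil livers. These shares rest on 2 to 54 counts of Pitx3 per library in CCl4 livers and 305 to 3140 in oil livers. Of 11702 genes compared, Pitx3 also followed Elovl3 most closely from liver to liver, with Pearson's r of 0.96 over 12 livers after the mean of each group was subtracted. Within the groups r was 0.95 in CCl4 livers and 0.999 in oil livers.

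Markers of fat and genes of the clock were read beside Elovl3. The elongase is also made in brown and white fat. The summed level of 6 fat cell markers was 0.0265 to 0.670 CPM in CCl4 livers and 0.339 to 3.33 CPM in oil livers. Ucp1, which defines brown fat, was at 0 in every CCl4 liver. It was at 1.40 CPM (54 counts) in oil liver 5 and at most 0.0234 CPM in the other oil livers. Oil liver 5 also had the highest fat marker sum. Of the 6 markers 5 did not pass the filter on low counts. The part of fat in the level of Elovl3 was not tested. Elovl3 transcript is known to cycle over the day in mouse liver. Among 16 tested clock genes 6 fell and 5 rose, where 18.4% of all tested genes fell and 20.6% rose. The median log2 fold change of the clock genes was -0.26. Dbp, a clock output factor whose span overlaps that of Sphk2, rose to 22.5 ± 16.0 CPM in CCl4 livers, against 1.88 ± 0.508 CPM in oil livers (adjusted p = 5.51e-05). Nr1d2, which encodes the repressor REV-ERB beta, rose to 28.5 ± 9.25 CPM in CCl4 livers, against 11.4 ± 2.17 CPM in oil livers (adjusted p = 0.000354). Nfil3, a repressor of the targets of Dbp, fell to 36.6 ± 8.17 CPM in CCl4 livers, against 113 ± 23.3 CPM in oil livers, and the clock repressor Cry1 fell to 10.2 ± 2.54 CPM in CCl4 livers, against 27.8 ± 4.31 CPM in oil livers (SD, n = 6 each). The time of day at which livers were taken is not given in the labels, and the part of the clock in the fall of Elovl3 was not tested.

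Cyp2u1 (gene ID 71519, chromosome 3, 131290491 to 131304157, minus strand) encodes a cytochrome P450 that hydroxylates long-chain fatty acids. It was at 4.13, 2.76, 4.03, 2.70, 3.46 and 3.04 CPM in CCl4 livers 1 to 6, against 17.4, 8.24, 9.88, 8.96, 11.3 and 10.5 CPM in oil livers 1 to 6. All CCl4 livers lay in a narrow band below the oil livers, of which liver 1 was highest. Cyp2u1 fell 3.29-fold (log2 fold change -1.72 ± 0.20 SE, adjusted p = 1.34e-05), the smallest fall of the 6 genes.

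Hsd3b5 (gene ID 15496, chromosome 3, 98618636 to 98645534, minus strand) encodes a male-specific member of the 3-beta-hydroxysteroid dehydrogenase family of mouse liver, which reduces 3-ketosteroids. It was at 7.72, 2.10, 1.94, 1.63, 0.411 and 8.26 CPM in CCl4 livers 1 to 6, against 204, 186, 256, 195, 140.2 and 203 CPM in oil livers 1 to 6. CCl4 livers 1 and 6 were high and CCl4 liver 5, with 31 counts, was low in a group that spread 20.1-fold between its lowest and highest liver, where the oil livers spread 1.82-fold. Hsd3b5 fell 53.9-fold (log2 fold change -5.75 ± 0.62 SE, adjusted p = 8.56e-06). Relatives of Hsd3b5 also fell. Hsd3b2 fell 2.77-fold to 10.4 ± 3.43 CPM in CCl4 livers, against 28.9 ± 6.38 CPM in oil livers, and Hsd3b3 fell 1.89-fold to 102 ± 21.4 CPM in CCl4 livers, against 193 ± 36.8 CPM in oil livers. Hsd3b7, an enzyme of bile acid synthesis, fell 1.82-fold to 371 ± 74.1 CPM in CCl4 livers, against 674 ± 80.2 CPM in oil livers (SD, n = 6 each). Hsd3b6 did not pass the filter. The coding sequence of Hsd3b5 is 81.3% identical to that of Hsd3b2, and none of the 50-base windows of its transcript occurs in transcripts of Hsd3b2 or Hsd3b3.

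Susd4 (gene ID 96935, chromosome 1, 182764044 to 182896596, plus strand) encodes a sushi domain protein that restrains complement activation. It was at 0.884, 0.354, 0.539, 0.627, 0.517 and 0.384 CPM in CCl4 livers 1 to 6, against 54.1, 39.9, 55.8, 38.7, 25.4 and 48.9 CPM in oil livers 1 to 6. No CCl4 liver reached 1 CPM, and the lowest oil liver, replicate 5, was far above all of them. The CCl4 values rest on 21 to 56 counts per library, and the 21 counts of CCl4 replicate 6 have a 95% Wilson interval of 0.256 to 0.599 CPM before TMM scaling. Susd4 fell 79.2-fold (log2 fold change -6.31 ± 0.28 SE, adjusted p = 9.26e-09). Its log2 SE was less than the 0.83 of Elovl3 and the 0.62 of Hsd3b5.

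Selenbp2 (gene ID 20342, chromosome 3, 94693573 to 94704406, plus strand) encodes a cytosolic selenium-binding protein known in mouse liver as an acetaminophen-binding protein. It was at 216, 87.4, 74.6, 82.6, 41.9 and 117 CPM in CCl4 livers 1 to 6, against 876, 337, 672, 300.5, 158 and 900.0 CPM in oil livers 1 to 6. Among the oil livers 1, 3 and 6 were high and 2, 4 and 5 were low, and CCl4 liver 1 lay above oil liver 5. Selenbp2 fell 5.24-fold (log2 fold change -2.39 ± 0.46 SE, adjusted p = 0.000955). Selenbp1, its neighbour on chromosome 3, fell 1.56-fold to 106 ± 13.8 CPM in CCl4 livers, against 165 ± 22.6 CPM in oil livers (SD, n = 6 each; adjusted p = 0.00118).

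Selenbp2 and Selenbp1 are near copies, so their reads can be hard to assign. Their coding sequences of 1419 bases differ at 18 positions (98.7% identity), and 52.0% of the 50-base windows and 21.2% of the 100-base windows of the Selenbp2 transcript occur unchanged in a Selenbp1 transcript. The 60-base stretch with most differences, 4, lies at coding bases 390 to 449 of each and is shown with the differing bases in capitals, from GENCODE M21 transcripts.
Selenbp2: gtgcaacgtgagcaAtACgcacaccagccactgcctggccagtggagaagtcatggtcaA
Selenbp1: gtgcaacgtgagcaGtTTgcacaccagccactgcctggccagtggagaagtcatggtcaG

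The balance of the pair differed between the groups. The ratio of Selenbp2 to Selenbp1 in CPM was 0.427 to 2.28 in CCl4 livers and 1.04 to 6.95 in oil livers. Its log2 averaged -0.21 ± 0.79 in CCl4 livers and 1.46 ± 1.09 in oil livers (SD, n = 6 each), a difference of -1.67 that passed an exact two-sided permutation test over livers (p = 0.0216). How the authors' counting divided reads between the copies is unknown, which leaves the level of either gene uncertain.

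Nudt7 (gene ID 67528, chromosome 8, 114133574 to 114154731, plus strand) encodes a hydrolase of peroxisomes that splits coenzyme A and its esters. It was at 255, 331, 184, 289.5, 79.2 and 343 CPM in CCl4 livers 1 to 6, against 676, 895, 1129.8, 662, 1189 and 874 CPM in oil livers 1 to 6. CCl4 liver 5 was lowest, and oil liver 5, which was lowest for 4 of the other genes, was highest here. Nudt7 fell 3.66-fold (log2 fold change -1.87 ± 0.30 SE, adjusted p = 0.000223). Nudt12, another peroxisomal hydrolase of the family, fell 1.48-fold, but not without CCl4 replicates 1, 3 and 5 (adjusted p = 0.0646). Nudt19, a further peroxisomal coenzyme A hydrolase, was at 67.7 ± 17.2 CPM in CCl4 livers and 53.3 ± 9.28 CPM in oil livers (SD, n = 6 each). It did not pass with all livers (adjusted p = 0.134) and did without those 3 (log2 fold change 0.63, adjusted p = 0.00473). The CCl4 livers kept there had a lower slope on transcript length than every oil liver, as given below. In that setting treatment and slope cannot be told apart.

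Among close relatives of the 6 genes, 7 of 10 tested fell and none rose, where 18.4% of all tested genes fell. The median log2 fold change of the relatives was -0.58. None of these relatives had a log2 fold change below -1.47 (Hsd3b2). Of the other fatty acid elongases, Elovl2 and Elovl5, which act on polyunsaturated fatty acids, fell by 0.60 and 0.44 on the log2 scale. Elovl5 did not pass with upper-quartile scaling (adjusted p = 0.0737). Elovl1 and Elovl6 had log2 fold changes of -0.10 and -0.20 and did not pass.

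The 6 genes fell by unequal amounts. For each of the 15 pairs the log2 ratio of the 2 genes within a liver was compared between CCl4 and oil livers by exact two-sided permutation, adjusted over the 15 pairs. All 9 pairs of Elovl3, Susd4 or Hsd3b5 with Selenbp2, Nudt7 or Cyp2u1 passed, each at an adjusted p of 0.00361, which comes from the smallest p that 924 splits can give (0.00216). The difference of CCl4 minus oil livers in these log2 ratios ran from -5.65 (Elovl3 over Cyp2u1) to -3.93 (Susd4 over Selenbp2). With all livers no pair passed inside each set of 3 genes. The largest difference there was Elovl3 against Susd4, at -1.10 (adjusted p = 0.180), and the smallest adjusted p was that of Elovl3 against Hsd3b5 (difference -1.01, adjusted p = 0.117). Without CCl4 replicate 1 or without oil replicate 5, 10 pairs passed in place of 9. The added pair lay inside the set of Elovl3, Susd4 and Hsd3b5. It was Elovl3 against Susd4 without CCl4 replicate 1 (adjusted p = 0.0325) and Elovl3 against Hsd3b5 without oil replicate 5 (adjusted p = 0.0162). The 2 sets were formed after the values were seen.

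**Figure D2:**
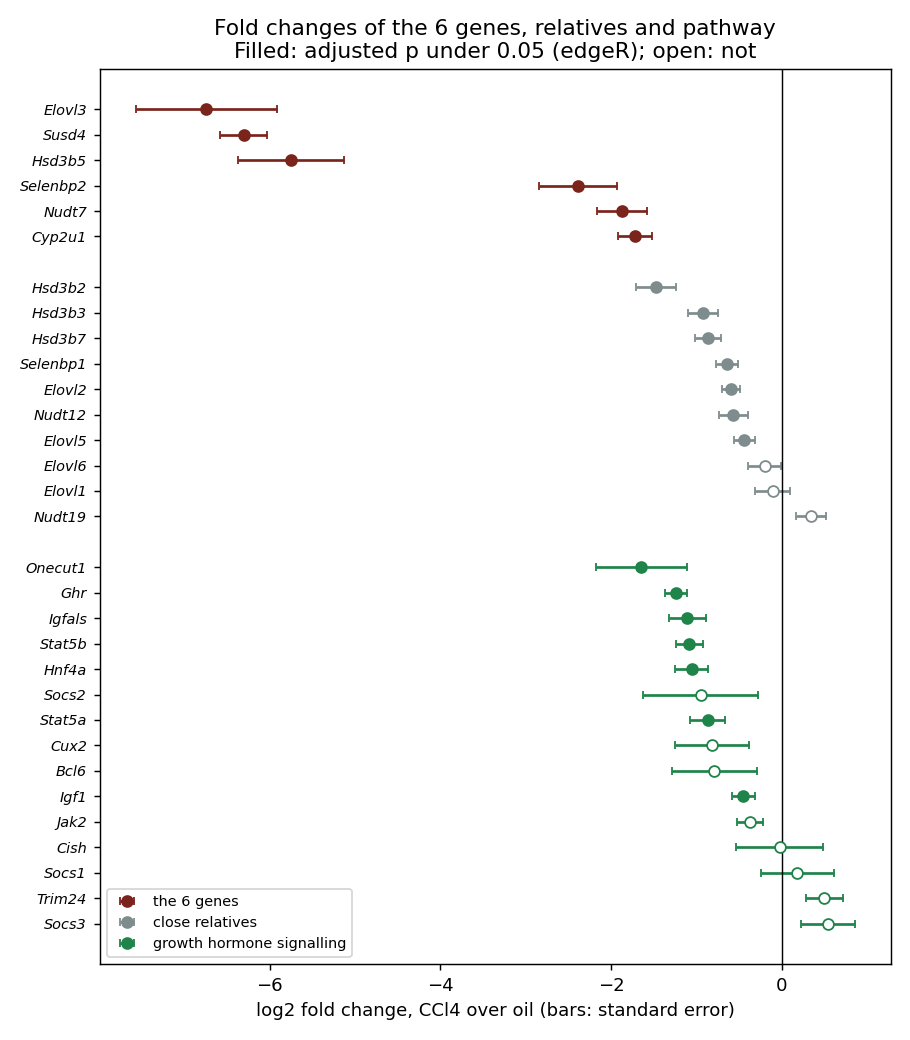
Log2 fold change of CCl4 over oil livers (points) with its standard error (bars) for the 6 genes, their close relatives and the genes of growth hormone signalling; filled points passed an adjusted p of 0.05. Elovl3, Susd4 and Hsd3b5 lie between -6.74 and -5.75, whereas Selenbp2, Nudt7 and Cyp2u1 lie between -2.39 and -1.72.

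The order of the transcripts by level differed between the groups. Levels of different genes are compared as CPM per kilobase of the longest annotated transcript. In CCl4 livers Nudt7 led with 69.7 ± 28.3 CPM per kilobase, followed by Selenbp2 (60.1 ± 35.1), Elovl3 (4.34 ± 5.74), Hsd3b5 (2.37 ± 2.19), Cyp2u1 (0.766 ± 0.143) and Susd4 (0.185 ± 0.0643). In oil livers Elovl3 led with 465 ± 211 CPM per kilobase, followed by Selenbp2 (314 ± 185), Nudt7 (255 ± 62.3), Hsd3b5 (127 ± 23.97), Susd4 (14.7 ± 3.84) and Cyp2u1 (2.52 ± 0.752; SD, n = 6 each). In CCl4 livers the ranges of neighbours in this order overlapped except between Selenbp2 and Elovl3 and between Cyp2u1 and Susd4. In oil livers those of Elovl3, Selenbp2 and Nudt7 overlapped, that of Hsd3b5 lay below Nudt7 but overlapped with Selenbp2 and Elovl3, and Susd4 and Cyp2u1 stood apart from each other and from the rest. Annotated transcripts of Nudt7 differ in length, and its level per length would be higher with a shorter one.

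Livers differed along several genes at once. CCl4 liver 1 was highest of its group for 4 of the 6 genes (Elovl3, Susd4, Cyp2u1 and Selenbp2), and CCl4 liver 5 was lowest for 4 (Elovl3, Hsd3b5, Selenbp2 and Nudt7). Oil liver 5 was lowest of its group for Elovl3, Hsd3b5, Susd4 and Selenbp2. Some of these libraries also stood apart in other ways. Summed transcripts of 5 skeletal muscle genes were 240.7 CPM in CCl4 liver 1 and 44.2 CPM in CCl4 liver 3, and at most 1.43 CPM in the other 10 livers. Summed transcripts of 5 pancreatic acinar genes were 280.1 CPM in CCl4 liver 5 and 84.2 CPM in CCl4 liver 3, and at most 50.1 CPM elsewhere. The slope of log2 CPM on log2 transcript length ran from -0.32 to 0.22 in CCl4 libraries and from -0.10 to 0.30 in oil libraries, and oil liver 5 was the oil library with a negative slope. Their part in these levels was not tested. Without CCl4 livers 1, 3 and 5, a choice made after the data were seen, all 6 genes still passed. The CCl4 livers kept, 2, 4 and 6, had slopes of -0.19, -0.15 and -0.32, each below that of every oil liver. In that setting treatment and slope cannot be told apart.

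**Figure D3:**
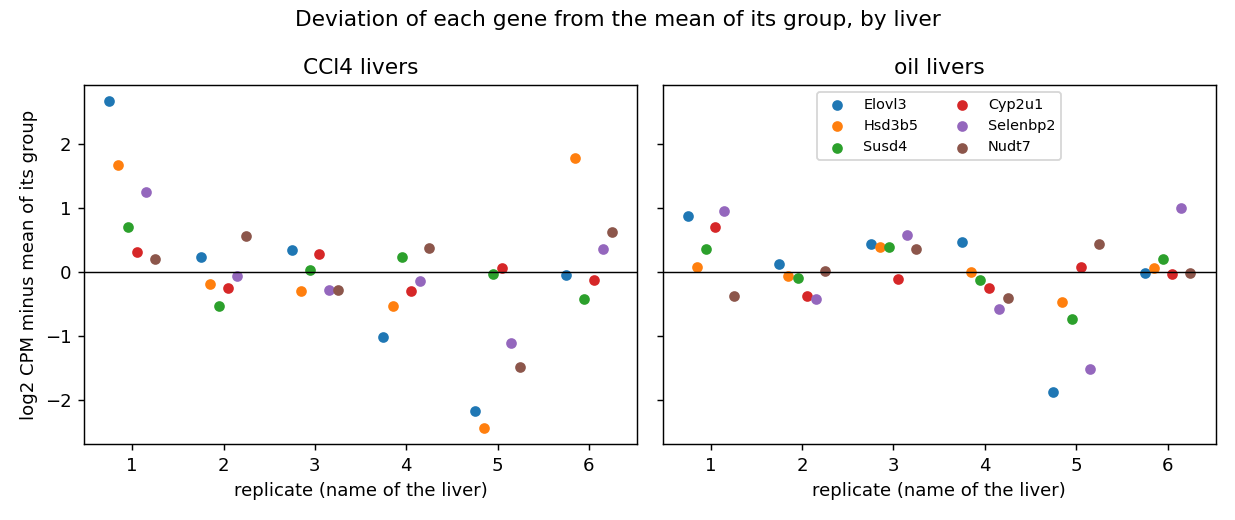
Log2 CPM of each of the 6 genes minus the mean of its own group, for CCl4 livers 1 to 6 (left) and oil livers 1 to 6 (right); each point is a gene in a liver. In CCl4 liver 1 all 6 genes lie above the group mean, and in oil liver 5 Elovl3 and Selenbp2 lie more than 1 unit below it.

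The correlation of the 6 genes over livers was computed within each group of 6 livers, never across groups, for 15 pairs in each group. In CCl4 livers 13 of 15 pairs had a positive Pearson's r of log2 CPM, with a median of 0.49 and a range of -0.42 to 0.92. In oil livers 9 of 15 were positive, with a median of 0.25 and a range of -0.68 to 0.94, but with libraries scaled to hepatocyte transcripts 14 of 15 were positive. No pair passed after adjustment over the 30 relations, for Pearson's r or for Spearman's rho. At an unadjusted p under 0.05 by exact permutation of 6 livers, 2 pairs passed in CCl4 and 3 in oil livers.

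The relations with the smallest p joined Hsd3b5, Susd4, Elovl3 and Selenbp2. Hsd3b5 and Selenbp2 had r = 0.92 in CCl4 livers (exact permutation p = 0.0153, adjusted p = 0.153) and rho = 0.89 (exact p = 0.0333, adjusted p = 0.5). Their r was 0.98 without CCl4 livers 5 and 6, the 2 farthest from the median of Hsd3b5. CCl4 liver 1 stayed in and stood above CCl4 livers 2, 3 and 4 in both genes. Hsd3b5 was at 7.72 against 2.10, 1.94 and 1.63 CPM, and Selenbp2 at 216 against 87.4, 74.6 and 82.6 CPM. The part of CCl4 liver 1 in this r was not tested. In oil livers the same pair had r = 0.78 (exact p = 0.0667, adjusted p = 0.250) and rho = 0.71 (exact p = 0.136, adjusted p = 0.659). Susd4 and Selenbp2 had r = 0.94 in oil livers (exact p = 0.0139, adjusted p = 0.153) and rho = 0.77 (exact p = 0.103, adjusted p = 0.659), with r = 0.96 without the 2 livers farthest from the median of Susd4. That r rests on oil livers 1, 2, 4 and 6, of which 1 and 6 were high and 2 and 4 low in both genes. In CCl4 livers this pair had r = 0.43 (exact p = 0.388, adjusted p = 0.684) and rho = 0.14 (exact p = 0.803, adjusted p = 0.926). Hsd3b5 and Susd4 had r = 0.93 in oil livers (exact p = 0.00417, adjusted p = 0.125) and rho = 0.94 (exact p = 0.0167, adjusted p = 0.5). Their r was 0.84 over oil livers 1, 2, 4 and 6, without the 2 farthest from the median of Hsd3b5. In CCl4 livers they had r = 0.13 (exact p = 0.794, adjusted p = 0.822) and rho = -0.14 (exact p = 0.803, adjusted p = 0.926). Whether these correlations differ between CCl4 and oil livers was not tested.

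In other pairs the relation rested on the 2 livers farthest from the median of the first gene. Elovl3 and Selenbp2 had r = 0.92 in CCl4 livers (exact p = 0.0319, adjusted p = 0.240) and rho = 0.60 (exact p = 0.242, adjusted p = 0.659), and r was -0.0013 without CCl4 livers 1 and 5. Elovl3 and Susd4 had r = 0.87 in oil livers (exact p = 0.0472, adjusted p = 0.250) and rho = 0.49 (exact p = 0.356, adjusted p = 0.821), and r was 0.0062 without oil livers 1 and 5. In oil livers r of Nudt7 was negative with each of the other 5 genes, the lowest with Elovl3 (r = -0.68, exact p = 0.0917, adjusted p = 0.250; rho = -0.71, exact p = 0.136, adjusted p = 0.659; r = -0.09 without oil livers 1 and 5). These signs depended on the scaling. With libraries scaled to hepatocyte transcripts only the r with Elovl3 was negative (-0.41), and the r with the other 4 ran from 0.09 to 0.28. With Cyp2u1, rho was 0.09 under TMM (exact p = 0.919, adjusted p = 0.951), and r was 0.77 without oil livers 1 and 2. The sign of r changed in 7 of 15 pairs in CCl4 livers and in 6 of 15 in oil livers when the 2 livers farthest from the median were left out. These correlations share the depth and scaling of each library.

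**Figure D4:**
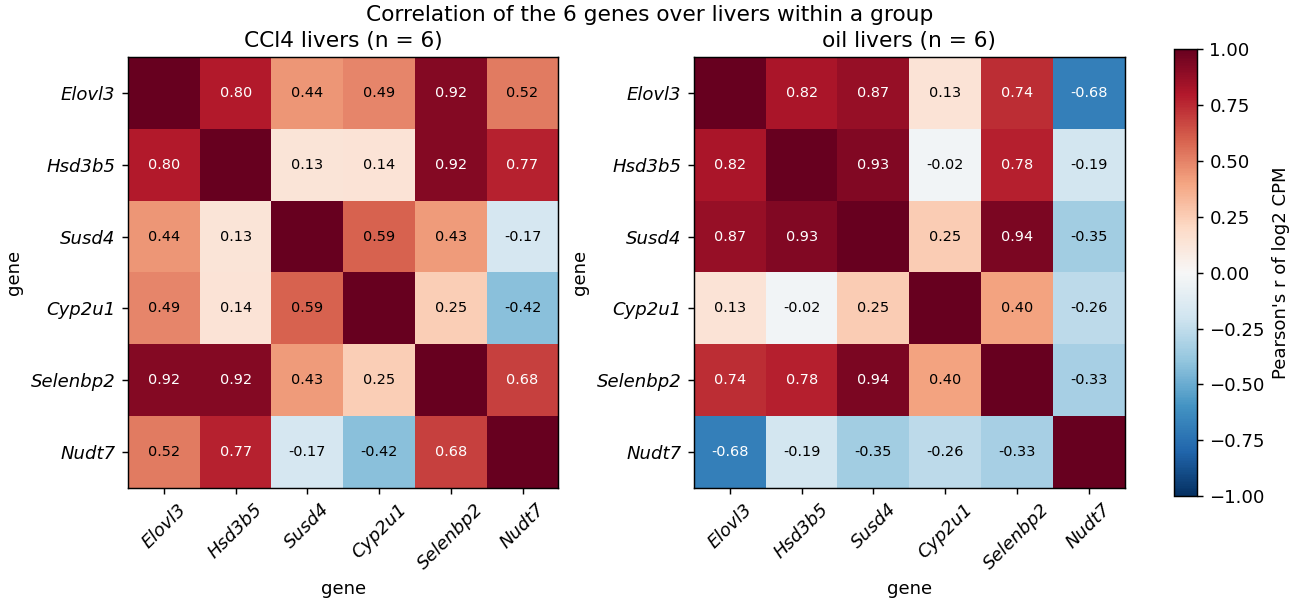
Pearson's r of log2 CPM between each pair of the 6 genes over 6 CCl4 livers (left) and 6 oil livers (right), from -1 (blue) to 1 (red). Hsd3b5 and Selenbp2 are at 0.92 in CCl4 livers and 0.78 in oil livers, and the Nudt7 row runs from -0.68 to -0.19 in oil livers under TMM, where scaling to hepatocyte transcripts left only Elovl3 negative. No pair passed adjustment over the 30 relations.

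Genes outside the 6 that followed them from liver to liver were found by Pearson's r over the 12 livers after the mean of each group was subtracted, among 11702 genes, as a description with no test. After Pitx3, given above, Elovl3 was closest to Serpina1e (r = 0.90) and Des (r = 0.86). For Des r was 0.91 in CCl4 livers and 0.73 in oil livers. CCl4 liver 1, highest of its group for Elovl3, also held 240.7 CPM of skeletal muscle transcripts. The part of that liver in the r of Des was not tested. Hsd3b5 was closest to Rhbg (r = 0.91), Cyp8b1 (r = 0.81) and C8b (r = 0.79). The relation to Rhbg was that of the CCl4 livers, with r = 0.95 in CCl4 livers and 0.25 in oil livers, whereas every other gene named here had r of at least 0.61 in both groups. Susd4 was closest to C6 (r = 0.95), Tfeb (r = 0.92) and Phospho1 (r = 0.92). Selenbp2 was closest to Serpina1e (r = 0.91), Cyp7b1 (r = 0.87) and Capn8 (r = 0.85). The nearest to Cyp2u1 were E2f2 (r = 0.87), Kdm4c (r = 0.86) and Pm20d2 (r = 0.86), and those to Nudt7 were the gene ID 545966, which has no name here, Grtp1 and Smpd2 (r = 0.90, 0.90 and 0.89). Of these, Serpina1e, C6 and Cyp7b1 were on the list of other male-biased genes.

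Other genes that are higher in male than in female mouse liver were also lower. Of 13 tested, 10 fell and none rose, where 18.4% of all tested genes fell. The median log2 fold change of the 13 was -1.69. Cyp7b1, an oxysterol hydroxylase, was at 25.8 ± 13.6 CPM in CCl4 livers and 385 ± 127 CPM in oil livers (log2 fold change -3.90 ± 0.33 SE, adjusted p = 1.33e-06). Mup1, a major urinary protein gene with many near copies, was at 0.400 ± 0.432 CPM in CCl4 livers and 12.3 ± 4.35 CPM in oil livers (log2 fold change -4.94 ± 0.53 SE, adjusted p = 8.29e-06; SD, n = 6 each). The 3 that did not pass, named here after their values were seen, were Mup20, C4a and Gstp1, with log2 fold changes of -0.42, -0.30 and -0.51. C4a passed without CCl4 replicate 1 (adjusted p = 0.0426) and Gstp1 without oil replicate 5 (adjusted p = 0.0112). With all livers the adjusted p of Gstp1 was 0.0312 by DESeq2 and 0.0100 by limma-voom.

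Genes that are higher in female liver moved in both directions. Of 15 tested, 6 rose and 1 fell, where 20.6% of all tested genes rose and 18.4% fell. The median log2 fold change of the 15 was 0.04, against 0.01 over all tested genes, and 6 further genes did not pass the filter. The count of falls was 2 without CCl4 replicate 5 or oil replicate 1, 3 without oil replicate 6 and 4 with the length slope as covariate. Ntrk2, a neurotrophin receptor, rose to 8.57 ± 2.38 CPM in CCl4 livers, against 0.423 ± 0.135 CPM in oil livers (adjusted p = 6.09e-08). Cyp2a4, a steroid hydroxylase with a near copy, rose to 26.9 ± 18.6 CPM in CCl4 livers, against 0.422 ± 0.195 CPM in oil livers (adjusted p = 1.63e-06). Tox, a nuclear factor, fell to 0.516 ± 0.222 CPM in CCl4 livers, against 2.99 ± 0.665 CPM in oil livers (SD, n = 6 each; adjusted p = 9.11e-06).

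Genes that carry the growth hormone signal were lower in part. Of 15 tested, 7 fell and none rose, where 18.4% of all tested genes fell. The median log2 fold change of the 15 was -0.82. The receptor gene Ghr fell to 239 ± 38.5 CPM in CCl4 livers, against 564 ± 62.2 CPM in oil livers (log2 fold change -1.24 ± 0.13 SE, adjusted p = 7.51e-06). Stat5b fell to 33.4 ± 3.79 CPM in CCl4 livers, against 70.8 ± 15.6 CPM in oil livers (log2 fold change -1.08 ± 0.16 SE, adjusted p = 9.87e-05), and its relative Stat5a fell by 0.87. Jak2 had a log2 fold change of -0.37 and did not pass (adjusted p = 0.0725), but adjusted p was 0.0161 when CCl4 replicate 5 was left out and 0.0315 when oil replicate 5 was left out. Of the secreted products, Igf1 fell by 0.45 and Igfals, the partner of circulating IGF1, fell by 1.11 on the log2 scale. Of the liver factors that act beside STAT5, Hnf4a fell by 1.05 and Onecut1 (HNF6) fell by 1.64, but Onecut1 did not pass without CCl4 replicate 2 (adjusted p = 0.0533), without oil replicate 3 (adjusted p = 0.0830) or once the length slope was a covariate (adjusted p = 0.103). Igf1 did not pass with upper-quartile scaling (adjusted p = 0.0638). The repressor genes Cux2 and Bcl6 had log2 fold changes of -0.82 and -0.79, and Trim24 had 0.50, and none of the 3 passed. Cux2 passed without CCl4 replicate 5 (adjusted p = 0.0104), and Trim24 passed without oil replicate 3 (adjusted p = 0.0487), without oil replicate 6 (adjusted p = 0.0499) and with upper-quartile scaling (adjusted p = 0.0304). With limma-voom Jak2 (adjusted p = 0.00840), Cux2 (adjusted p = 0.0308) and Trim24 (adjusted p = 0.0402) passed, and with DESeq2 Jak2 passed (adjusted p = 0.0328). Without CCl4 replicates 1, 3 and 5, Jak2 (adjusted p = 0.0108) and Cux2 (adjusted p = 0.0226) passed and Igf1 did not (adjusted p = 0.0840).

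Socs2 and Cish, which STAT5 switches on with each pulse, and Bcl6 varied widely in both groups. Socs2, a feedback inhibitor, ranged from 3.70 to 27.3 CPM in CCl4 livers and from 1.59 to 41.9 CPM in oil livers (log2 fold change -0.95 ± 0.68 SE, adjusted p = 0.276). Cish, another, ranged from 6.83 to 31.0 CPM in CCl4 livers and from 2.12 to 31.1 CPM in oil livers (log2 fold change -0.02 ± 0.51 SE, adjusted p = 0.974). Bcl6, which growth hormone represses, ranged from 11.2 to 55.2 CPM in CCl4 livers and from 13.6 to 84.2 CPM in oil livers. The inhibitors Socs1 and Socs3 had log2 fold changes of 0.18 and 0.54 and did not pass, but Socs3 passed with limma-voom (adjusted p = 0.0414). The ranges of the groups overlapped for Socs2, Cish and Bcl6.

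Markers of hepatocytes and of other cells set the frame for these values. The summed level of 12 hepatocyte transcripts was 141599 to 195432 CPM in CCl4 livers and 133199 to 185186 CPM in oil livers, so that the groups overlapped. Alb weighed most in this sum, with a mean of 77063 CPM in CCl4 livers and 78023 CPM in oil livers. Of the 12, 4 fell and 1 rose, where 18.4% of all tested genes fell and 20.6% rose. Among 9 markers of pericentral hepatocytes 9 fell, with sums of 739 to 1431 CPM in CCl4 livers and 7975 to 9642 CPM in oil livers, and among 8 periportal markers 4 fell and 2 rose, with sums of 2662 to 4444 CPM in CCl4 livers and 4504 to 8330.1 CPM in oil livers. Of 8 markers of monocyte-derived macrophages 8 rose, with sums of 399.8 to 708 CPM in CCl4 livers and 117 to 194 CPM in oil livers. Of 9 markers of stellate cells and myofibroblasts 9 rose, with sums of 508 to 892 CPM in CCl4 livers and 86.3 to 197 CPM in oil livers. Of 6 markers of dividing cells 6 rose, with sums of 38.3 to 91.5 CPM in CCl4 livers and 7.91 to 12.5 CPM in oil livers. Other cell types rose in part. Of tested markers, 4 of 6 rose for Kupffer cells, 2 of 6 for sinusoidal endothelium and 2 of 5 for bile duct. For lymphocytes 3 of 8 rose and for neutrophils 1 of 4, and no marker of these 5 cell types fell. The part of all these cells in the falls of the 6 genes was not tested. With libraries scaled to the 12 hepatocyte transcripts in place of TMM, all 6 genes passed.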

How the data were processed

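The authors deposited whole-number read counts per gene, not normalised, as a file for each of 12 mice and as a table of the series. The values of both were equal in all 12 libraries. Per the labels' protocols a stranded total RNA kit was used, and per the submitters' processing notes the build was GRCm38. The sources used here do not name the aligner, the counter, its annotation or its use of strand. Groups follow the treatment labels, and replicate numbers only name livers. RefSeq (GRCm38.p6) named 31049 IDs and GENCODE M21 another 78, and the 5401 unnamed IDs held 2.19% of counts. Replicates of a group differed beyond counting noise (chi-square per gene 49.4 or more). Each library is described as 1 mouse of its group, and p-values of group comparisons weigh the difference between groups against the spread between these samples.

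The filter was filterByExpr and the scaling TMM, and the test was the robust quasi-likelihood F test of edgeR 4.0.16 in R 4.3.3 with Benjamini-Hochberg adjustment over 16032 genes and a threshold of 0.05. Log2 CPM used a prior count of 2, which understates the fold of low genes in ratios of pairs. The SE is the log2 fold change over the root of F, without its sign. Pairs of genes and the Selenbp ratio were tested by exact two-sided permutation over livers (scipy 1.17.1). Intervals cover counting error only. At 43027778 to 70375852 counts, genes under 1 CPM rest on few counts.

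The alternatives tried were scaling by upper quartile, by the size factors of DESeq2, by TMM without mitochondrial genes or to hepatocyte transcripts, the tests of DESeq2 1.42.0 and of limma-voom (limma 3.58.1) with quality weights, a test against 1.5-fold, no filter, at least 50 counts in 6 libraries, the slope on transcript length as a covariate, a prior count of 0.5 for ratios, CPM or Spearman's rho for correlations, and leaving out each liver; leaving out CCl4 livers 1, 3 and 5 was added after the data were seen. The genes, lists and rules were chosen with earlier results of these data known. Named beside the 6 genes were all relatives and signalling genes, the 2 called genes with the smallest p in each direction of the other lists, and 3 genes per member by likeness (mean log2 CPM of at least 1). The edgeR fit was tested on simulated counts.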

Additional observations from a re-analysis of the deposited data

Results flagged for a closer look

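A liver was looked at again where its gap to the nearest liver of its group, on the log2 CPM scale, as a share of the range of the 6 livers, was above Dixon's 95% critical value. Of 62 groups of 6 livers checked 7 passed this, where chance gives about 1 in 20. Oil replicate 5 was the liver in 5 of the 7. In it Elovl3 was lowest of the oil livers, at 205 CPM (gap 0.675 of the range), as were Hsd3b3 at 123 CPM (0.700), Elovl1 at 36.6 CPM (0.633) and Stat5b at 43.1 CPM (0.660), while Cux2 was highest at 1.17 CPM (0.839). Hsd3b7 was lowest in CCl4 replicate 5, at 237 CPM (0.644). Socs1 was highest in CCl4 replicate 6, at 0.915 CPM, which rests on 50 counts (0.660). Elovl1 overlaps Cdc20, so its count may hold reads of that gene.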

How the results depend on the processing

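All 6 genes passed, in the same direction, under each of the alternatives and with each liver left out. The log2 fold change of Elovl3 was between -7.86 and -6.03, of Hsd3b5 between -6.66 and -5.55, of Susd4 between -6.58 and -5.93, of Selenbp2 between -2.76 and -1.87, of Nudt7 between -2.34 and -1.49 and of Cyp2u1 between -1.96 and -1.58. The highest adjusted p was 0.0394, for Selenbp2. The fold moved by over 1.5 times for Elovl3 with limma-voom (-7.77), with the length slope as a covariate (-6.03), without CCl4 replicate 1 (-7.86) and without CCl4 replicates 1, 3 and 5 (-7.75), and for Hsd3b5 with limma-voom (-6.66); the cause was not tested. Upper-quartile scaling moved the median of all genes to 0.13 from 0.01 on the log2 scale.

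In the test against 1.5-fold 2381 genes passed, 1616 up and 765 down (67.9% up), and 4 growth hormone signalling genes fell in place of 7 and 1 relative in place of 7; that test asks for a larger change. Without CCl4 replicates 1, 3 and 5, 4505 genes fell in place of 2951, and of the lists 6 relatives fell and 1 rose, 8 signalling, 11 male-biased and 8 clock genes fell, and 1 female-biased gene fell and 6 rose. The CCl4 livers kept there had lower length slopes than every oil liver, so treatment and slope cannot be told apart in that setting. Of the growth hormone signalling genes none rose in the edgeR fit with TMM, all livers and no covariate. With upper-quartile scaling or the length slope as a covariate 1 rose, with limma-voom 2, and with a liver left out 0 to 1. Scaled to hepatocyte transcripts, 14 of 15 pairs correlated positively in oil livers in place of 9. The Selenbp ratio differed by -1.95 to -1.40 with a liver left out (exact permutation p between 0.00433 and 0.0390), and 9 or 10 pairs of the 6 genes differed. No paired analysis was possible because the labels give no number that links a CCl4 liver to an oil liver. Depth limits Susd4 in CCl4 livers, which had 21 to 56 counts.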
